A study of Bos taurus with 20 samples.

Results

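The synaptotagmins are a family of vesicle and membrane proteins, and 8 of their genes were followed here across diet and calving in bovine liver: SYT4, SYT11, SYT1, SYT7, SYT9, SYT12, SYT13 and SYT17. They are 8 of 20011 genes measured, taken by symbol, with the brightest probe set where a symbol had several, and each of the 8 had a single probe set. SYT4 was chosen by its antepartum signals, which differed between the diets, and the other 7 by family name. The comparison asks whether the diet difference of SYT4 was shared by its relatives, cow by cow and at each time.

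Liver RNA of 10 multiparous Holstein-Friesian cows was hybridised to Affymetrix gene arrays, with 1 array per cow and time and 20 arrays in all. The 5 LP cows (A to E) received a low phosphorus ration with 0.16% phosphorus in dry matter for 4 weeks at the end of the dry period, when a pregnant cow has ceased to be milked, and the 5 AP cows (F to J) received an adequate one with 0.35%. Nitrogen was equalised with urea in the LP concentrate, and mono-ammonium phosphate supplied the phosphorus of the AP concentrate. Intake was limited to 11.5 kg of dry matter in both diets before calving, and all cows received 1 adequate phosphorus ration after it, so that each cow gave an antepartum array (rations differed) and a postpartum array (same ration). Values are log2 signals, on which a difference of 1 is a doubling, and errors are SD over 5 arrays.

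Synaptotagmins carry a pair of C2 domains, through which many of them bind calcium and phospholipid, and they act with SNARE proteins when vesicles fuse with a target membrane. SYT4 and its nearest relative SYT11 have a changed residue in the first C2 domain that weakens calcium binding, and in rodents SYT4 is known from neurons and endocrine cells, on dense core vesicles and the Golgi apparatus. The family is best known from nervous and endocrine tissue rather than from liver.

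The medians of the 20 arrays lay between 5.97 and 6.14. All 12 hepatocyte markers, ALB and TTR among them, were above the array median on every array. A pair of arrays stood apart in marker scores (a score is the mean, over the genes of a list, of the signal minus the gene's mean over all arrays). That of LP cow C postpartum had an adipocyte score of 4.46, against -0.56 to -0.08 in the other LP postpartum arrays, a fibroblast and stellate score of 3.64 and a skeletal muscle score of 1.66. That of AP cow F antepartum had a skeletal muscle score of 1.70, against -0.27 to 0.28 in the other AP antepartum arrays, and the highest antepartum fibroblast and stellate score (0.68). Diet differences of the 8 genes that turn on either array are also given without it. Among the marker lists this was done only for the antepartum skeletal muscle median. These are bulk tissue samples, in which fewer cells of a type and less RNA per cell cannot be told apart.

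SYT4 was higher in LP than in AP livers at both times, by 0.83 on the log2 scale at each. Its diet difference was tested only postpartum, where it passed in the main limma fit (adjusted p = 0.0105). Of 22 alternatives, 6 did not pass, among them the limma fit of the postpartum groups alone (adjusted p = 0.213). The other synaptotagmins were tested at both times, and none passed the test of a diet difference. The SYT4 probe set (12808553, 28 probes, not marked as cross-hybridizing) lies on chromosome 24, plus strand, with start 12950391 and end 12960189 in the workbook's coordinates, whose build the sources used here do not give. Antepartum, the signal was 8.96 in cow A, 8.45 in cow B, 8.59 in cow C, 8.71 in cow D and 8.30 in cow E on LP, against 7.70 in cow F, 7.76 in cow G, 7.78 in cow H, 7.71 in cow I and 7.92 in cow J on AP. Every LP cow was above every AP cow. The LP mean was 8.60 ± 0.25 and the AP mean 7.78 ± 0.09 (SD, n = 5 each), a log2 difference of 0.83 with a 95% interval of 0.59 to 1.07. These antepartum values chose the gene and are a description, with no test, and the interval does not allow for that choice. Without the antepartum array of cow F the difference was 0.81. In size, 34 of 20011 genes had a larger absolute diet difference than SYT4 antepartum, and 111 of 20011 had a larger one postpartum.

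After calving, when all cows ate the same ration, the signal was 8.45, 8.53, 8.76, 8.53 and 8.37 in LP cows A to E, against 7.81, 7.67, 7.41, 7.80 and 7.79 in AP cows F to J. The groups again did not overlap. SYT4 averaged 8.53 ± 0.15 in LP and 7.70 ± 0.17 in AP postpartum livers (SD, n = 5 each), which is 1.78-fold higher in LP (log2 difference 0.83, SE 0.117, 95% interval 0.59 to 1.07, limma adjusted p = 0.0105). It was the 1 gene of 20011 that passed postpartum at an adjusted p under 0.05 (0.005% of genes). The exact permutation test over the cows gave the smallest p that 5 against 5 allow, 0.00794 (two-sided, unadjusted). Every gene whose diet groups do not overlap reaches this p, and 129 genes (0.645%) had such groups postpartum. SYT4 was chosen by its antepartum arrays, but with earlier results of these data known, so its postpartum p may not be free of the choice. The postpartum arrays come from the same 10 cows, so that they are a second measurement of those cows and not of new ones. The limma test also took its spread from all arrays, including the antepartum arrays that chose the gene. The difference ranged from 0.76 to 0.87 when 1 cow at a time was left out. Its adjusted p was 0.0752 without cow C, 0.0749 without cow D, 0.09325 without cow G, 0.108 without cow H and 0.0516 without cow I, and 0.213 when only the postpartum groups entered the fit. Without the postpartum array of cow C alone the difference was 0.77 (adjusted p = 0.03959).

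**Figure D1:**
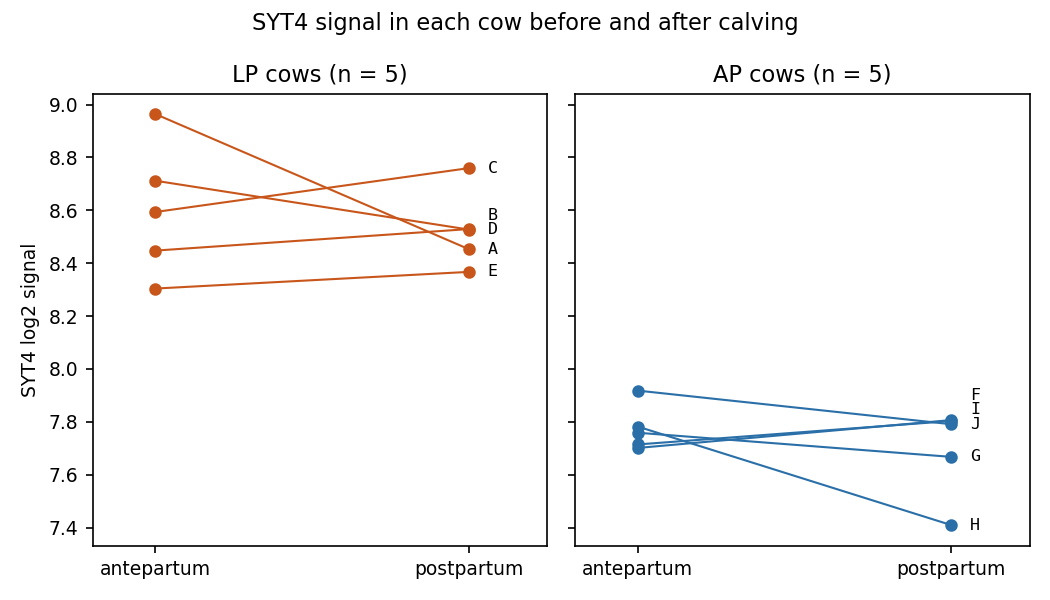
SYT4 log2 signal (vertical axis) in each cow antepartum and postpartum, LP cows left and AP cows right, with a line joining the arrays of 1 cow. All 10 LP arrays lie at or above 8.30 and all 10 AP arrays at or below 7.92.

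Over all 20 arrays the lowest LP signal was 8.30 (cow E, antepartum) and the highest AP signal 7.92 (cow J, antepartum), a gap of 0.39. The 10 antepartum arrays are those that chose SYT4, so its separation over all 20 arrays is a description, in which nothing is read from the count of such genes (1 of 20011, 0.005%, with or without the postpartum array of cow C). On the postpartum arrays SYT4 was among 129 genes (0.645%) whose diet groups did not overlap, and 110 genes (0.55%) had such groups antepartum. None of the other 7 synaptotagmins had diet groups apart at either time.

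Calving itself did not move SYT4 by an amount that passed the test. Postpartum minus antepartum, the change was -0.51 in cow A, 0.08 in cow B, 0.17 in cow C, -0.18 in cow D and 0.06 in cow E on LP, and 0.11 in cow F, -0.09 in cow G, -0.37 in cow H, 0.09 in cow I and -0.13 in cow J on AP. The signal was higher postpartum in 3 of 5 LP cows and in 2 of 5 AP cows. Over both diets the mean change was -0.08 (SE 0.083, 95% interval -0.25 to 0.09, limma adjusted p = 0.827), in a comparison in which 300 genes, 1.5% of all, passed. The change was -0.08 in LP and -0.08 in AP, and the change in LP minus that in AP was 0.0023 (95% interval -0.34 to 0.35), given with no test because it contains the antepartum values that chose the gene.

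None of the 7 relatives passed the test between the diets at either time. SYT4 and SYT12 were the 2 genes of the 8 with a mean above every array median, and the other 6 had a mean below every array median. No detection call was used, so whether the dimmer genes were expressed was not tested. Antepartum, 0 of 7 passed with limma and 0 had an unadjusted p under 0.05, beside 0.005% and 2.45% of all genes. The difference was above 0 in 5 of 7, where 48.9% of all genes were above 0, with a median of 0.06 (range -0.12 to 0.23). Postpartum, 0 of 7 passed and 1, SYT11, had an unadjusted p under 0.05, beside 0.005% and 5.66% of all genes. The difference was above 0 in 5 of 7, where 50.8% of all genes were, with a median of 0.14 (range -0.13 to 0.43). The upper 95% limits of the 7 reached at most 0.47 antepartum, in SYT1, and 0.75 postpartum, in SYT9 and SYT11, the last within the SYT4 interval of 0.59 to 1.07. The difference between SYT4 and each relative was not tested.

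**Figure D2:**
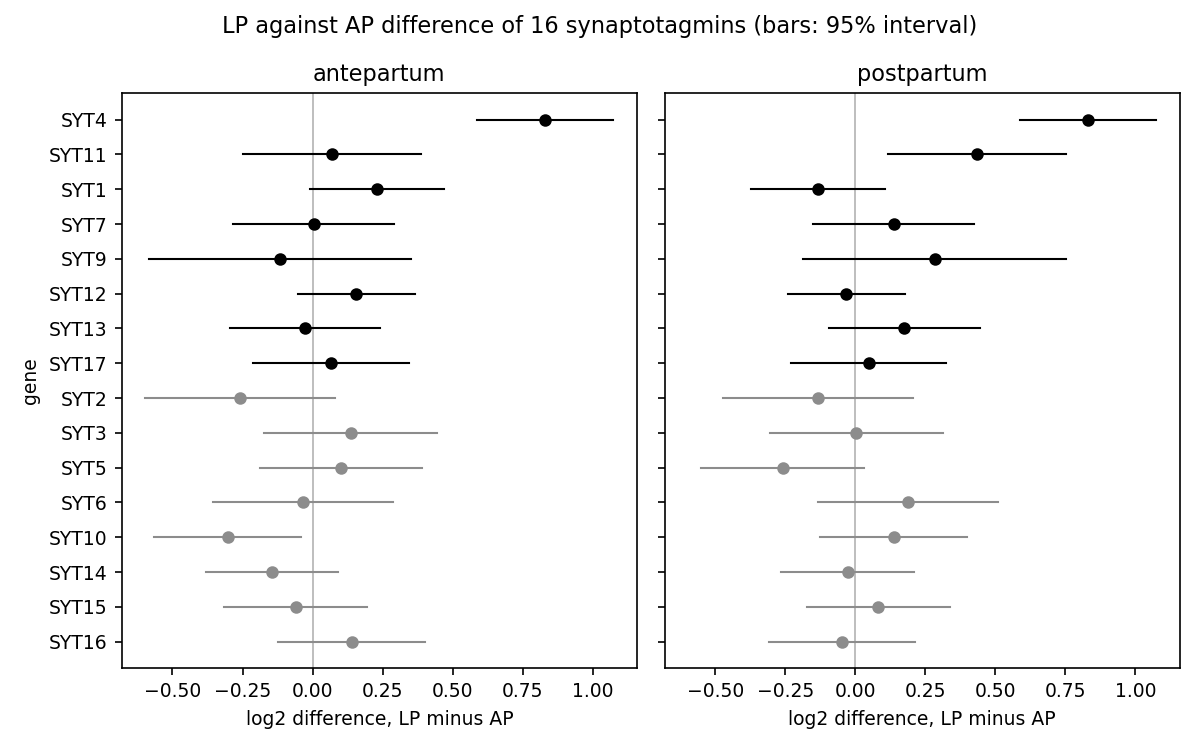
Log2 difference, LP minus AP (horizontal axis), of 16 synaptotagmins (vertical axis) antepartum and postpartum, with 95% intervals from limma. Black marks the 8 genes followed here and grey the 8 others measured, and SYT4 stands at 0.83 in both panels. The antepartum values chose SYT4, and its antepartum interval does not allow for that choice.

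SYT11, the nearest relative of SYT4 and like it a weak calcium binder, came closest to it after calving. Its antepartum signals were 5.41, 5.82, 5.75, 5.79 and 5.86 in LP cows A to E and 5.66, 5.78, 5.66, 5.86 and 5.32 in AP cows F to J, and the groups overlapped almost wholly. The antepartum means were 5.73 ± 0.18 in LP and 5.66 ± 0.21 in AP (SD, n = 5 each), a difference of 0.07 (SE 0.153). Postpartum the signals were 5.84, 5.89, 6.56, 5.86 and 5.70 in LP cows A to E and 5.58, 5.32, 5.29, 5.63 and 5.86 in AP cows F to J. Only AP cow J reached into the LP range. The postpartum means were 5.97 ± 0.34 in LP and 5.54 ± 0.24 in AP (SD, n = 5 each), a difference of 0.43 (SE 0.153, 95% interval 0.12 to 0.75) that did not pass (limma adjusted p = 0.812, exact permutation p = 0.0317, two-sided and unadjusted). Without the postpartum array of cow C, which held the highest value, the difference was 0.29 (adjusted p = 0.978). The signal was higher postpartum in 4 of 5 LP cows and in 1 of 5 AP cows. The LP change minus the AP change was 0.36 (SE 0.216, limma adjusted p = 1.00).

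SYT1, the fast calcium sensor of transmitter release at synapses, differed in opposite directions at the 2 times, and neither difference passed. Antepartum it was 5.33, 5.79, 5.45, 5.38 and 5.58 in LP cows A to E, against 5.29, 5.36, 5.38, 5.26 and 5.07 in AP cows F to J. Postpartum it was 5.63, 5.03, 5.37, 5.22 and 5.02 in LP cows A to E, against 5.38, 5.41, 5.33, 5.41 and 5.40 in AP cows F to J. Postpartum the AP cows lay close together, between 5.33 and 5.41, while the LP cows spread on both sides of them. The difference was 0.23 antepartum (SE 0.115, limma adjusted p = 1.00, exact permutation p = 0.0397, unadjusted) and -0.13 postpartum (SE 0.115, adjusted p = 0.844). The LP change minus the AP change was -0.36 (SE 0.163, unadjusted p = 0.0362, limma adjusted p = 1.00), with a higher postpartum signal in 1 of 5 LP cows and in 4 of 5 AP cows. No gene passed this test of the 2 calving changes against each other (0%), and 2.79% of all genes had an unadjusted p under 0.05.

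SYT7, a high-affinity calcium sensor of slower release and of lysosome fusion in rodent cells, was nearly equal between the diets. Its antepartum signals ran from 5.25 to 5.87 in LP and from 5.39 to 5.84 in AP, and its postpartum signals from 5.35 to 5.89 in LP and from 5.21 to 5.71 in AP. The difference was 0.0044 antepartum (95% interval -0.28 to 0.29, and -0.0092 without the antepartum array of cow F) and 0.14 postpartum (95% interval -0.15 to 0.43).

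SYT9, which serves as a fast calcium sensor in some rodent neurons and acts on dense core vesicles, was the dimmest of the 8, with a mean below the lower quartile of every array (4.67 to 4.98). Antepartum it ran from 4.22 to 4.54 in LP and from 4.30 to 4.70 in AP. Postpartum it was 4.15, 4.33, 5.91, 4.17 and 4.67 in LP cows A to E, against 4.16, 4.29, 4.53, 4.32 and 4.51 in AP cows F to J. One array, that of cow C with its high adipocyte and fibroblast scores, carried the LP postpartum mean of 4.65 ± 0.74 (SD, n = 5). The postpartum difference of 0.28 (SE 0.226, adjusted p = 0.842) turned to -0.03 without that array.

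SYT12, SYT13 and SYT17 lack most of the residues with which the classical members bind calcium. SYT12, a vesicle protein phosphorylated in rodent neurons, ran from 5.98 to 6.54 in LP and from 6.01 to 6.20 in AP antepartum, and from 6.02 to 6.24 in LP and from 5.95 to 6.30 in AP postpartum. Its differences were 0.16 antepartum (SE 0.101) and -0.03 postpartum (SE 0.101). SYT13, known from endocrine cells of the mouse pancreas, ran from 5.48 to 6.19 in LP and from 5.65 to 6.00 in AP antepartum, and from 5.71 to 6.26 in LP and from 5.44 to 5.89 in AP postpartum. Its differences were -0.03 antepartum, which turned to 0.02 without the antepartum array of cow F, and 0.17 postpartum (SE 0.129 at each time). SYT17, a member without a transmembrane segment, ran from 5.07 to 5.72 in LP and from 4.88 to 5.32 in AP antepartum, and from 4.98 to 5.29 in LP and from 4.81 to 5.45 in AP postpartum. Its differences were 0.06 antepartum and 0.05 postpartum (SE 0.134 at each time). The diet groups of these 3 genes overlapped at both times.

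**Figure D3:**
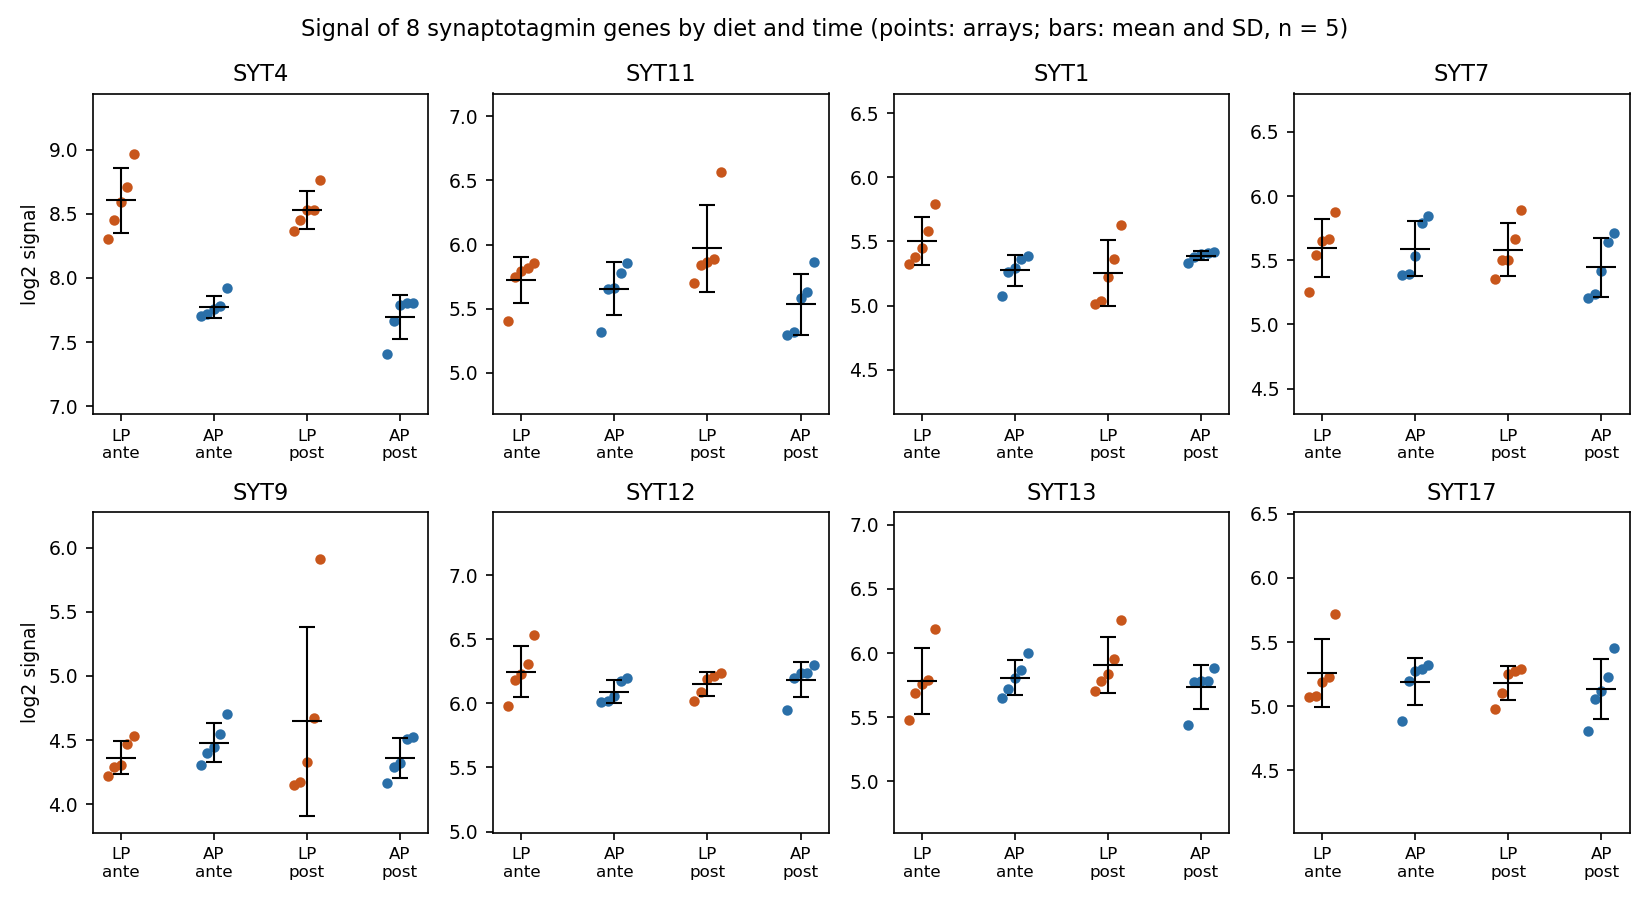
Log2 signal (vertical axis, 2.5 units in each panel, at different levels) of the 8 genes in LP and AP arrays antepartum (ante) and postpartum (post), with points for arrays, horizontal bars for means and vertical bars for SD (n = 5). In SYT4 the LP points lie above all AP points, and in the other 7 panels the LP and AP points overlap at each time.

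Across calving, 0 of the 8 genes passed over both diets, where 1.5% of all genes passed with limma (11.9% at an unadjusted p under 0.05), and 0 of the 8 had an unadjusted p under 0.05. The changes of the 7 relatives over both diets ran from -0.08 in SYT7 to 0.08 in SYT9 and were above 0 in 3 of 7, beside 46.1% of all genes. Signs turned without the postpartum array of cow C, to -0.076 in SYT9, -0.011 in SYT11 and 0.0040 in SYT12. Within LP, where 0.015% of genes passed and 5.96% had an unadjusted p under 0.05, the change of SYT1 was -0.25 (SE 0.115, unadjusted p = 0.0403, limma adjusted p = 0.816), and 3 of the 7 changes were above 0, beside 49.1% of all genes. Within AP, where 0.415% of genes passed and 9.2% had an unadjusted p under 0.05, the changes of the 7 relatives ran from -0.15 in SYT7 to 0.11 in SYT1, with 2 of 7 above 0 beside 44.2% of all genes. The LP change was above the AP change in 4 of 7, beside 50.2% of all genes. Without the postpartum array of cow C, the LP change of SYT9 turned from 0.28 to -0.03. The LP minus AP change of SYT17 then turned from -0.02 to 0.03.

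Of 9 further synaptotagmins listed, SYT2, SYT3, SYT5, SYT6, SYT10, SYT14, SYT15 and SYT16 were measured, and SYT8 was not analysed here. None of these 8 passed with limma in any of the 6 comparisons (0% to 1.5% of all genes). Between the diets, 1 of the 8 antepartum and 0 postpartum had an unadjusted p under 0.05, beside 2.45% and 5.66% of all genes, and their differences ran from -0.30 to 0.14 antepartum and from -0.26 to 0.19 postpartum. SYT10, a calcium sensor of growth factor release in mouse neurons, had the lowest unadjusted p of the 8 antepartum. It was 3.99, 3.89, 4.19, 3.78 and 3.86 in LP cows A to E, against 4.23, 4.14, 4.35, 4.20 and 4.30 in AP cows F to J. The difference was thus in the other direction from that of SYT4, at -0.30 (SE 0.126, limma adjusted p = 1.00, exact permutation p = 0.0159, unadjusted), and the groups overlapped by LP cow C alone. Postpartum the SYT10 difference was 0.14 (SE 0.126). SYT5, which is found on dense core vesicles, had the lowest unadjusted p postpartum, with 5.70 ± 0.31 in LP and 5.96 ± 0.25 in AP (SD, n = 5 each) and a difference of -0.26 (SE 0.139, adjusted p = 0.812).

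Other genes of vesicle fusion were read against the share of all genes called between the diets, which was 0.005% at each time with limma, and 2.45% antepartum and 5.66% postpartum at an unadjusted p under 0.05. A list of 14 relatives, most with tandem C2 domains, held extended synaptotagmins, synaptotagmin-like proteins, DOC2 proteins, rabphilins and MCTP proteins. Of these, 13 were measured and 0 passed between the diets at either time with limma (0 antepartum and 1 postpartum at an unadjusted p under 0.05). The lowest unadjusted p postpartum were those of SYTL1, an effector of RAB27 (5.94 in LP and 5.63 in AP, difference 0.31, SE 0.116, adjusted p = 0.812), and of MCTP1 (difference 0.41, SE 0.226). Of 48 genes of the SNARE fusion machinery 47 were measured, and 0 passed between the diets at either time (2 at each time at an unadjusted p under 0.05). With so few genes called in all, these counts of 0 are near the share of all genes and say nothing particular about the lists. Antepartum the lowest unadjusted p were those of STXBP6, a regulator of SNARE assembly (7.37 in LP and 7.88 in AP, difference -0.51, SE 0.207, adjusted p = 1.00), and STX18, a SNARE of the endoplasmic reticulum (difference 0.27, SE 0.117). Across calving 1 of the 47 passed, beside 1.5% of all genes. It was RAB3D, a small GTPase of secretory granules, which rose over both diets by 0.45 on the log2 scale (means of 7.28 postpartum against 6.80 antepartum in LP and of 7.21 postpartum against 6.79 antepartum in AP, SE 0.079, limma adjusted p = 0.00528).

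All 22 genes of dense core vesicle cargo and neuroendocrine cells, the vesicles on which SYT4 is known in rodents, were measured and 0 passed between the diets, by limma, at either time (0 also at an unadjusted p under 0.05), beside 0.005% of all genes (2.45% antepartum and 5.66% postpartum unadjusted). The difference was above 0 in 5 of 22 antepartum (median -0.04) and in 14 of 22 postpartum (median 0.07), beside 48.9% and 50.8% of all genes. The lowest unadjusted p antepartum was that of UCHL1, a neuronal ubiquitin hydrolase (5.30 in LP and 5.62 in AP, difference -0.32, SE 0.199). PAM, which amidates peptides in secretory granules, was 8.72 in LP and 8.65 in AP postpartum, against 9.00 in LP and 9.04 in AP antepartum (change over both diets -0.33, SE 0.120, adjusted p = 0.210).

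Of 14 macrophage markers 13 were measured and 0 passed between the diets at either time, beside 0.005% of all genes. At an unadjusted p under 0.05 there were 6 of 13 antepartum and 0 of 13 postpartum, beside 2.45% and 5.66% of all genes. The difference was above 0 in 12 of 13 antepartum (median 0.41, where the median of all genes was -0.0031) and in 11 of 13 postpartum (median 0.22, against 0.0025), beside 48.9% and 50.8% of all genes. In the test of the LP change across calving against the AP change, 0 of 13 passed and 0 had an unadjusted p under 0.05. C1QB and C1QA, subunits of complement C1q made by macrophages, had the lowest unadjusted p antepartum (differences 0.51, SE 0.158, and 0.52, SE 0.172). The macrophage score was -0.05 to 0.55 in LP and -0.15 to 0.17 in AP antepartum, and -0.58 to 0.21 in LP and -0.50 to -0.09 in AP postpartum. The scores of the diets overlapped at both times, and 4 of the 5 LP antepartum scores lay above all AP antepartum scores. The part of macrophage content in the SYT4 difference was not tested.

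**Figure D4:**
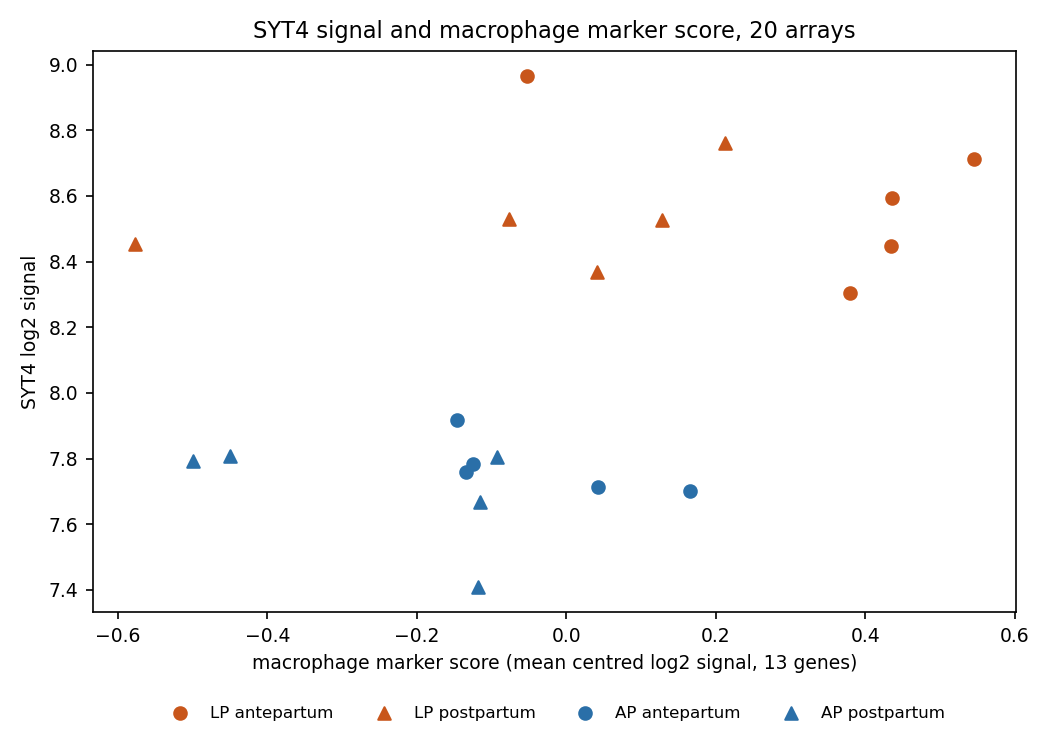
SYT4 log2 signal (vertical axis) against the macrophage marker score (horizontal axis, mean over 13 genes of the signal minus the gene's mean) on 20 arrays, with colour for diet and shape for time. The LP arrays lie at 8.30 or higher over scores from -0.58 to 0.55, and the AP arrays at 7.92 or lower over scores from -0.50 to 0.17.

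Of 10 neuronal and glial markers all were measured and 0 passed between the diets, beside 0.005% of all genes at each time (0 antepartum and 1 postpartum at an unadjusted p under 0.05, beside 2.45% and 5.66%). The difference was above 0 in 6 of 10 antepartum and in 8 of 10 postpartum, beside 48.9% and 50.8% of all genes. Their score overlapped antepartum (-0.22 to 0.26 in LP and -0.18 to 0.10 in AP) and not postpartum (0.05 to 0.15 in LP and -0.23 to 0.0048 in AP). Among single genes 0.645% had diet groups apart postpartum. This list is 1 of 12 that were scored, and the separation of its score was not tested. The postpartum differences of lowest p were those of GAP43, a growth cone protein (0.32, SE 0.143, adjusted p = 0.812), and SNAP25, the neuronal SNARE (0.38, SE 0.199). The part of nerve tissue in the SYT4 difference was not tested.

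Genes with symbols starting with LOC were left out when genes were ranked by likeness to SYT4. Of the others, those whose signal followed that of SYT4 most closely over the 20 arrays were CYP4B1 (r = 0.783), CRYBB1 (r = 0.762), PTAFR (r = 0.742), SERTAD1 (r = 0.723) and DCAF7 (r = 0.715). These Pearson coefficients are descriptions over 20 arrays that share 10 cows, 2 diets and 1 normalization. CYP4B1, a cytochrome P450, had the largest diet differences of the 5, with means of 5.37 in LP and 4.13 in AP antepartum and 5.16 in LP and 4.13 in AP postpartum, and it passed at neither time (adjusted p = 1.00 and 0.812). PTAFR, the platelet-activating factor receptor, was 7.69 in LP and 7.28 in AP antepartum. With the 4 group means subtracted, the closest were CYFIP1 (r = 0.829), FOXO1 (r = 0.827), PFKFB3 (r = 0.817), RAP2B (r = 0.810) and BCL2L11 (r = 0.801), whose diet differences ran from -0.0052 in FOXO1 to 0.09 in BCL2L11 antepartum and from -0.13 in CYFIP1 to 0.15 in RAP2B postpartum. Among the 7 relatives, SYT11 had the highest coefficient with SYT4 (r = 0.456), which was 0.127 with the group means subtracted, and SYT17 then had the lowest (r = -0.565).

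The genes beside SYT4 on chromosome 24 did not pass in any diet comparison. By the workbook's coordinates these were SERPINB8 and SERPINB2, genes of serine protease inhibitors of the ovalbumin type, before it and LOC781724 and LOC100296801 (start 14066132) after it. The order in the ARS-UCD2.0 gene table differs, with CDH7 and SERPINB8 before SYT4 and LOC781724 and PIK3C3 after it. CDH7 and PIK3C3 also did not pass between the diets (differences -0.18 and -0.12 antepartum, 0.29 and -0.17 postpartum). SERPINB2, which ends at 12765314, was 6.30 in LP and 6.13 in AP antepartum and 6.32 in LP and 5.97 in AP postpartum (differences 0.17 and 0.34, SE 0.250). LOC781724, which starts at 13064117, was 11.07 in LP and 11.11 in AP antepartum (difference -0.05, SE 0.161).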

How the data were processed

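Array signals reached the repository as log2 values of 24333 probe sets, made by the authors with SST-RMA per the name of the deposited worksheet, and with RMA and Affymetrix Expression Console 1.4 per the submitters' processing notes. Because RMA brings the arrays close to a common distribution, a change common to all genes would be hidden. No detection call was used, and precision rests on 5 arrays a group. Groups follow the diet and time labels, and the animal number in each title pairs the arrays of a cow. Probe sets without a symbol (3912) were left out.

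The test was limma (version 3.58.1, R 4.3.3) on 4 group means over all 20 arrays with eBayes, two-sided, adjusted by Benjamini-Hochberg over 20011 genes at a threshold of 0.05. Intervals are 95%. Deviations from the group means agreed more within a cow (median r 0.167 across genes, over 0.1 in 8 of 10 cows) than between cows (median r -0.041), so a replicate block by cow was run beside the unblocked fit.

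The members, the 4 pathway lists, the 12 marker lists and the choice of named genes (all members, genes of each list that passed or else up to 2 of lowest p, the 5 most like SYT4 by each r, and the 2 nearest genes on each side) were made with earlier results of these data known. Symbols starting with LOC were left out of the genes most like SYT4. Of the 8 members, 6 matched the ARS-UCD2.0 gene table by accession and 8 by symbol. The accession of SYT15 is SYT15B there. Other alternatives were quantile normalization, median centring, a filter on dim genes, the mean of probe sets, a trended robust variance, array weights, array number, the rounded series table, fewer groups and each cow left out. The code was tested on simulated data.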

Additional observations from a re-analysis of the deposited data

Results flagged for a closer look

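In 6 of 32 groups of 5 arrays of the 8 genes, the highest or lowest array lay far from the others (a gap over 0.71 of the group's range), which chance gives in about 1 group in 20. SYT11 was 5.408 in LP cow A antepartum, against 5.749 to 5.86 in the other LP antepartum arrays, and 6.563 in LP cow C postpartum, against 5.698 to 5.885. Cow C's postpartum array also had the highest adipocyte score. In AP cow G postpartum SYT12 was 5.947 and SYT13 5.438, against 6.197 to 6.296 and 5.777 to 5.887 in the other AP postpartum arrays. SYT17 was 5.718 in LP cow B antepartum, against 5.072 to 5.229, and 4.881 in AP cow J antepartum, against 5.196 to 5.318. None of the 6 was a SYT4 value.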

How the results depend on the processing

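Over 22 alternatives at each time, the SYT4 diet difference ran from 0.74 to 0.90 antepartum and from 0.76 to 0.88 postpartum. With only the groups compared, the postpartum difference of 0.83 did not pass (adjusted p = 0.213). There fewer arrays, the postpartum ones alone, gave the spread. With 1 cow or array left out it ran from 0.76 to 0.87. It had an adjusted p of 0.01076 with cow as a random replicate block, a value of 0.83, and the paired fits changed no call among the 8 genes. Among the 7 relatives limma called 0 under every alternative, and the exact permutation test, unadjusted, gave 1 at each time (SYT1 antepartum, SYT11 postpartum).

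Small differences turned round. Array weights gave -0.0132 for SYT7 and -0.008295 for SYT17 antepartum, -0.0297 for SYT9 postpartum, -0.0330 for SYT9 and 0.04005 for SYT12 across calving over both diets, 0.0599 for SYT17 across calving in LP and 0.13 for the SYT17 LP minus AP change. Array number as a covariate gave -0.02715 for SYT7 antepartum, 0.007322 for SYT12 across calving and 0.002228 for SYT7 across calving in LP. Quantile normalization gave -0.005574 for SYT17 postpartum. With 1 cow or array left out, the antepartum range was -0.0143 to 0.149 in SYT11, -0.0651 to 0.0907 in SYT7, -0.129 to 0.0483 in SYT13 and -0.05045 to 0.111 in SYT17, and the postpartum range -0.0324 to 0.408 in SYT9, -0.0912 to 0.00049 in SYT12 and -0.03355 to 0.127 in SYT17. Across calving it was -0.0197 to 0.114 in SYT11, -0.0941 to 0.142 in SYT9, -0.0448 to 0.0275 in SYT12 and -0.0294 to 0.0707 in SYT13. Within LP it was -0.104 to 0.0765 in SYT7, -0.0699 to 0.403 in SYT9 and -0.146 to 0.0201 in SYT17, within AP -0.161 to 0.0414 in SYT17, and -0.1185 to 0.08385 for the SYT17 LP minus AP change. The cause of these turns was not tested. A filter on dim genes left out SYT9. Leaving out the antepartum array of cow F, chosen after seeing the data, gave -0.009227 for SYT7 and 0.02084 for SYT13 antepartum and 0.006878 for SYT12 across calving. The count of genes with diet groups apart on all arrays, without the postpartum array of cow C, was also chosen then.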

Other observations

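The other cell type lists bear on what the livers held rather than on synaptotagmins. Between the diets 0.005% of all genes passed at each time, and 2.45% antepartum and 5.66% postpartum had an unadjusted p under 0.05. The difference was above 0 in 48.9% of all genes antepartum and in 50.8% postpartum. All 8 T or NK cell markers were above 0 in LP against AP antepartum (median 0.26) and 7 of 8 postpartum (median 0.16), and 0 passed with limma (1 and 0 at an unadjusted p under 0.05). KLRB1, a receptor of natural killer cells, was 5.83 in LP and 5.40 in AP antepartum (difference 0.42, SE 0.160). Among hepatocyte markers, 0 of 12 passed between the diets, and across calving, where 1.5% of all genes passed, the apolipoprotein gene APOA1 rose by 1.31 on the log2 scale, while TTR, CYP2E1, TF and AHSG fell (-0.61, -0.34, -0.25 and -0.43). The macrophage markers C1QC and CD14 fell across calving (-0.56 and -0.48, limma adjusted p = 0.0340 and 0.0497). Calls of genes outside the 8 members come from the unblocked fit of all arrays. They are not given with a block by cow or without cow C's postpartum array.

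Fibroblast and stellate markers were below 0 in LP against AP antepartum in 8 of 8 (median -0.24), where AP cow F had a score of 0.68, and above 0 in 7 of 8 postpartum (median 1.16), a group that holds cow C's array, and 0 passed with limma (0 antepartum and 3 postpartum at an unadjusted p under 0.05). The same array stands in the postpartum medians of the adipocyte list (0.81, 6 genes, against -0.07 antepartum) and the skeletal muscle list (0.29, 7 genes). It also had a cholangiocyte score of 1.19. The postpartum medians of these lists were not recomputed without it. Antepartum, 6 of the 7 skeletal muscle markers were below 0 in LP against AP (median -0.52), a comparison that holds the array of AP cow F (score 1.70). Without that array the median was -0.03. Median antepartum and postpartum differences were -0.08 and 0.19 for 6 cholangiocyte markers, 0.14 and 0.03 for 6 endothelial markers, 0.03 and 0.05 for 5 B or plasma cell markers, 0.12 and 0.09 for 6 neutrophil markers and -0.10 and 0.02 for 5 erythroid markers, and none of these passed.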
